A study of Mus musculus with 37 samples.

Results

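The genes described here are 9 genes of ferritin and iron handling, taken by symbol from a table of 23947 genes measured in 37 single cells. They are Ftl1 and Fth1, which encode the light and heavy chains of ferritin, Ncoa4, Tfrc, Slc11a1, Slc11a2, Hmox1, Blvrb and Slc40a1. Each symbol was found as a row of the table. The cells were sorted as adipose tissue macrophages from the epididymal white fat of male C57BL/6J mice kept on a high-fat diet, with 60% of energy from fat, 20% from carbohydrate and 20% from protein. The sources used here do not give the age or number of the mice, nor the gate of the sort. After a collagenase digestion of 30 min, single cells were isolated on a Fluidigm C1 microfluidic instrument, and libraries were made from polyadenylated RNA. All cells carried the same labels and no animal was named for any of them, so they form 1 group and count as a single sample. For that reason the results carry no p-value, and each comparison describes these 37 cells, named by their numbers from 0 to 36. C57BL/6J mice are known to carry a loss-of-function allele of Slc11a1, a property that all cells share and that limits what its transcript level says about iron transport.

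Macrophages recycle iron from engulfed cells and hold iron for the tissue around them. Iron enters on transferrin through the transferrin receptor (Tfrc) or inside heme, which heme oxygenase (Hmox1) opens to free iron, carbon monoxide and biliverdin. Divalent metal transporters (Slc11a2, and Slc11a1 in phagosomes) move iron into the cytosol, ferritin stores it in a shell of heavy and light chains, Ncoa4 carries ferritin to the lysosome for release, and ferroportin (Slc40a1) exports it. Much of this control acts on the transcripts themselves: iron regulatory proteins bind a hairpin, the iron-responsive element, and in iron-poor cells they block translation when it lies in the 5′ UTR and protect the transcript when it lies in the 3′ UTR. The transcript of a gene with a 5′ element is therefore known to be an incomplete guide to its protein.

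The iron-responsive elements of these genes are shown because they are the letters that iron regulatory proteins read. They were searched in GENCODE release 21 transcripts of the mouse reference as the 17-base pattern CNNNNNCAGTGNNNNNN, on the sense strand only, with at least 4 of the 5 stem positions on either side of the loop able to pair. Capitals mark the bulged C and the 6-base loop, and 6 bases are printed on either side of the pattern, 5′ to 3′.
Ftl1, 5′ UTR: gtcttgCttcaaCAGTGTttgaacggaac
Fth1, 5′ UTR: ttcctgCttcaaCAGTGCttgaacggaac
Slc40a1, 5′ UTR: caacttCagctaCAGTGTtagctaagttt
Tfrc, 3′ UTR, first: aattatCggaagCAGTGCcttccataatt
Tfrc, 3′ UTR, after the first: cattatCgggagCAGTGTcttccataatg
Tfrc, 3′ UTR, next to last: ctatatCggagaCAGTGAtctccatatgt
Tfrc, 3′ UTR, last: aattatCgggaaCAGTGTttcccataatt
Slc11a2, 3′ UTR: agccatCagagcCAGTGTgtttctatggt
A match in a UTR was found for 5 of the 9 genes, 3 in the 5′ UTR and 2 in the 3′ UTR, and Tfrc held 4 matches. The pattern was found in the 5′ UTR of 0.981% of 20899 genes and in the 3′ UTR of 4.15% of 21028 genes. Counted from 1 at the bulged C, the Ftl1 and Fth1 patterns differed by the single substitution T12C, which is the last base of the loop, while Ftl1 and Slc40a1 differed at 6 of 17 bases. The Slc11a2 match paired at 4 of 5 positions and the other 7 at 5 of 5. A match is a description of the letters, and no matching UTR was found in this way for Hmox1, Blvrb, Ncoa4 or Slc11a1.

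Values are FPKM, fragments scaled by transcript length and by the number mapped, which can be set beside each other between genes. The FPKM of all genes summed to between 225528 and 1841670 per cell (median 326230), and between 1224 and 3204 genes per cell reached 1 FPKM. The number of fragments per cell is unknown. A relative value of 1 fragment, estimated from low values, spanned 97.6-fold, and the 6 cells above 4 times the median (2, 7, 15, 17, 24 and 26) are called shallow. The macrophage list held 15 genes, 13 of them detected in 19 cells or more, and every cell detected at least 8. Cells 7 and 27 stood apart: they held 7 and 8 of 8 fibroblast genes, with a summed FPKM of 7339 and 10949 against at most 604 in any other cell, and their summed macrophage FPKM was 328 and 141 against 8505 to 47113 in the others. Results that rest on these cells are given with and without them. Every cell had 0 for 7 of 7 erythroid genes and for 9 of 9 globin genes, where 51.6% of the table was at 0 in every cell. Whether any cell had engulfed red cells was not tested. Cells 0 to 19 and cells 20 to 36 are treated as 2 putative library parts of 20 and 17 cells, which are not in the labels: low-value genes were shared with a mean correlation of 0.081 within parts and 0.031 between them.

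Detection in a cell means a value of at least 1 FPKM. Since the value of 1 fragment differs between cells, this threshold is not the same number of fragments in each of them. Shallow cell 7 had 3204 detected genes, the most of any cell. All 9 genes were detected in some cell, against 41.7% of the table. Of the 9 genes, 6 were detected in at least 5 cells, against 19.6% of the table, and 4 (Ftl1, Fth1, Blvrb and Slc11a1) in at least 19 cells, against 4.03%. The 2 ferritin chains were detected in all 37 cells, as were 0.359% of genes. The genes thus ran from transcripts among the most abundant in the table to transcripts near the limit of detection. By median FPKM the order was Ftl1 (7708), Fth1 (4157), Blvrb (15.7), Slc11a1 (13.8), Hmox1 (0.153) and Tfrc (0.010), with Slc40a1, Slc11a2 and Ncoa4 at 0. Ftl1 and Fth1 overlapped widely, as did Blvrb and Slc11a1, whose medians lay well inside each other's spread over cells. A cell detected between 2 and 6 of the 9 genes: 4 cells detected 2 (the ferritin chains alone), 9 detected 3, 13 detected 4, 6 detected 5 and 5 detected 6.

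**Figure D1:**
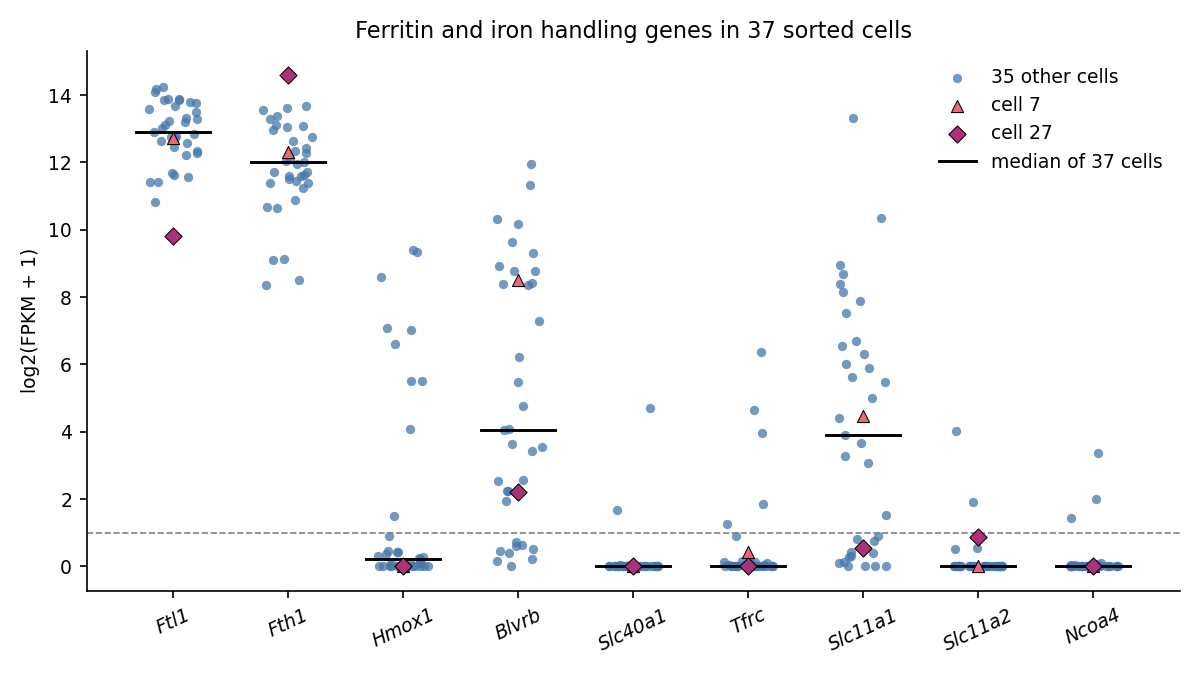
Log2(FPKM + 1) (y axis) of each of the 9 genes (x axis), with 1 point per cell, cell 7 as a triangle, cell 27 as a diamond, the median of 37 cells as a bar and 1 FPKM as the dashed line. Ftl1 and Fth1 stay at or above 324 FPKM in every cell, while Blvrb and Slc11a1 spread from 0 to 3953 and 10272 FPKM and the other 5 genes lie below 1 FPKM in most cells.

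Ferritin storage dominated the iron transcripts. Ftl1, the light chain, which helps mineralise iron inside the shell, had a lowest value of 895 FPKM (cell 27), quartiles of 5219 and 13005, a median of 7708 and a highest value of 19199.8 (cell 14). Its median ranked 3rd of all genes in the table, and 36 of 37 cells were at 1000 FPKM or more. Fth1, the heavy chain, which carries the ferroxidase activity, had a lowest value of 324 FPKM (cell 2), quartiles of 2663 and 7911, a median of 4157 and a highest value of 24610 (cell 27). Its median ranked 7th, and 33 cells were at 1000 FPKM or more. The heavy chain varied more among cells than the light chain: the highest value was 76.0 times the lowest for Fth1 and 21.4 times for Ftl1, and the SD over cells of log2(FPKM + 1) was 1.42 and 1.01. Both ends of that range rest partly on cells that stand apart, since the highest Fth1 and the lowest Ftl1 were both in cell 27, one of the 2 cells with fibroblast genes, and the lowest Fth1 was in a shallow cell. Without cells 7 and 27, Ftl1 ran from 1796 to 19199.8 FPKM and Fth1 from 324 to 12953.

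Together the 2 chains made up a median of 3.45% of a cell's summed FPKM, from 0.19% in cell 2 to 9.53% in cell 34. Ftl1 was among the 10 highest genes in 31 cells and was the highest gene of all in 3. Fth1 was among the 10 highest in 20 cells and the highest in 1, cell 27. Ferritin was thus a leading transcript in most of these cells but not in all. In shallow cell 2, where the chains took the smallest share, Ftl1 ranked 117th and Fth1 342nd, the lowest rank of Fth1 in any cell, and the part of depth in these values was not tested. The lowest rank of Ftl1, 211, was in cell 27, which is not shallow and holds fibroblast genes.

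The balance of the chains was tilted to the light chain in most cells. Ftl1 exceeded Fth1 in 31 of 37 cells, and the median of log2(Ftl1/Fth1) was 0.89 (quartiles 0.37 and 1.47), a ratio of 1.85. Ftl1 was more than double Fth1 in 18 cells, and Fth1 more than double Ftl1 in 2, cells 27 and 22. The ratio ranged from −4.78 in cell 27 to 4.78 in cell 17 on the log2 scale, with an SD of 1.54. The 4 cells with the highest ratio were shallow cells 17 (4.78) and 26 (4.22), cell 14 (2.98), which is not shallow, and shallow cell 2 (2.47), and the 6 shallow cells had a median of 1.44. The 31 other cells kept the median of 0.89. The median was 1.03 without cells 7 and 27, and 0.69 and 1.15 in the 2 library parts. The 2 parts therefore had the same direction, with a difference of medians smaller than the SD over cells. The 6 cells with more Fth1 were 27, 22, 0, 13, 24 and 15, of which 24 and 15 are shallow.

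**Figure D2:**
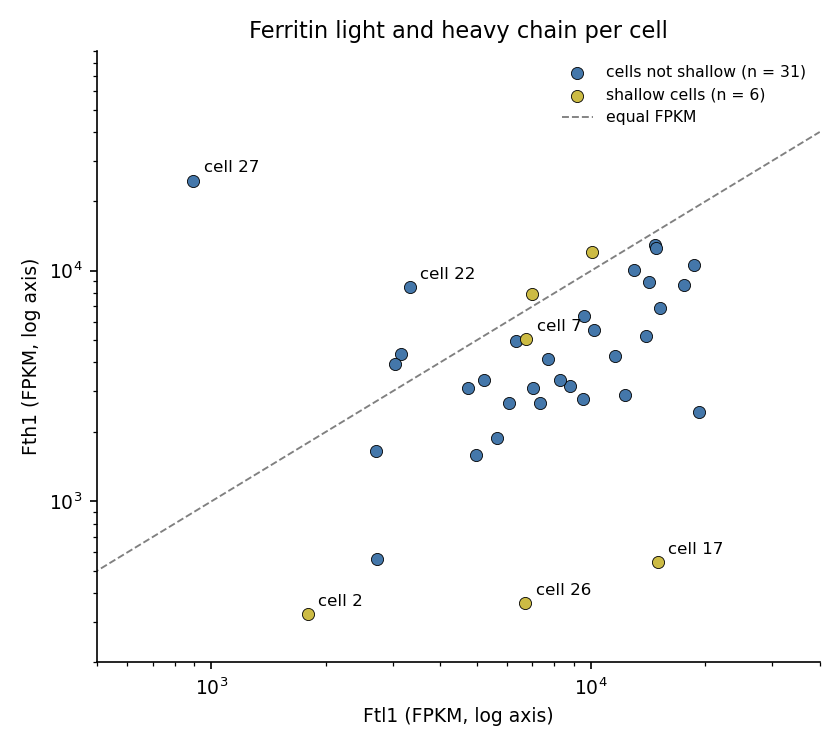
Fth1 FPKM (y axis, log scale) against Ftl1 FPKM (x axis, log scale), 1 point per cell, with shallow cells in yellow and the dashed line marking equal values. Most points (31 of 37) lie below the line, cell 27 lies far above it, and shallow cells 17 and 26 lie farthest below.

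Ferritin genes are known to have pseudogene copies elsewhere in the mouse genome, which can share reads with them. The Ftl1 transcript and that of its copy Ftl1-ps1 were identical at 906 of 910 aligned bases (99.6%) in the GENCODE transcripts, against 63.4% identity between Ftl1 and Fth1. Ftl1-ps1 was not a row of the table, and how reads matching both were counted is not given, so the level of Ftl1 is uncertain to that extent. Ncoa4, the receptor that delivers ferritin to the lysosome, was listed at 0 in 27 cells. It was detected in 3 cells (8.11%, 95% interval 1.70 to 21.9), at 1.69 FPKM in cell 29, 2.96 in cell 6 and 9.40 in cell 21. No cell came near the level of either ferritin chain. These intervals are exact Clopper-Pearson intervals and cover the sampling of cells only.

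Of Slc11a1, Tfrc and Slc11a2, Slc11a1 had the highest median transcript level. Slc11a1 encodes a divalent metal transporter of the phagosome membrane of macrophages. The loss-of-function allele named above limits what this level says about iron transport. The Slc11a1 transcript was detected in 23 of 37 cells (62.2%, 95% interval 44.8 to 77.5) and was listed at 0 in 4. It had quartiles of 0.338 and 92.2 FPKM around a median of 13.8. The highest value, 10272 FPKM, was in shallow cell 24, in which the summed FPKM was also the highest of all, and the next was 1312 in cell 15, also shallow. Rescaled to the same FPKM sum in every cell (1000000), cell 24 remained the highest at 5577. Both of the highest values thus came from shallow cells, and the part of depth in them was not tested. Cells 7 and 27, the cells with fibroblast genes, had 20.9 and 0.451 FPKM, so the transcript was not detected in cell 27.

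The transcripts of Tfrc and Slc11a2 were sparse. Tfrc, the transferrin receptor, whose 3′ UTR held 4 of the pattern matches above, was listed at 0 in 17 cells and lay between 0 and 1 FPKM in 15. It was detected in 5 cells (13.5%, interval 4.54 to 28.8), with 1.41 FPKM in cell 25, 2.61 in cell 17, 14.5 in cell 28, 24.1 in cell 4 and 81.6 in cell 8. Slc11a2, the endosomal divalent metal transporter, was listed at 0 in 32 cells and detected in 2 (5.41%, interval 0.661 to 18.2), with 2.78 FPKM in cell 12 and 15.2 in cell 33. No cell detected both, whereas the product of their shares gives 0.27 cells, so the small numbers allow no statement on their overlap. The sampling depth of single cells cannot show whether a transcript listed at 0 was absent.

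Of the 2 heme breakdown genes, Blvrb was detected in more cells than Hmox1. Blvrb, biliverdin reductase B, which turns biliverdin or flavin into its reduced form, was detected in 28 cells (75.7%, interval 58.8 to 88.2), with quartiles of 2.86 and 365 FPKM and a median of 15.7. The highest values were 3953 in shallow cell 24 and 2547 in cell 11, and 14 cells were at 100 or more. Blvrb was thus neither uniformly present nor rare: the upper quartile was 128 times the lower. Hmox1, heme oxygenase 1, was listed at 0 in 15 cells, lay between 0 and 1 in 12 and was detected in 10 (27.03%, interval 13.8 to 44.1). In those 10 cells it was 1.82 in cell 15, 15.9 in cell 29, 44.0 in cell 6, 44.7 in cell 28, 96.6 in cell 31, 129 in cell 26, 135 in cell 17, 384 in cell 11, 645 in cell 8 and 667 in cell 16. Most detections of Hmox1 were well above the threshold: 9 of 10 were at 10 FPKM or more, and cells 7 and 27 were both listed at 0. Of the 10 cells, 9 also detected Blvrb, where the product of the shares gives 7.57.

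Slc40a1, ferroportin, the only known exporter of cellular iron, was listed at 0 in 33 cells. It was detected in 2 (5.41%, interval 0.661 to 18.2), with 2.19 FPKM in cell 8 and 25.1 in cell 11, and both of these cells also detected Hmox1. Both cells are in the first library part. With 2 positive cells the overlap with Hmox1 is a count and not a pattern.

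**Figure D3:**
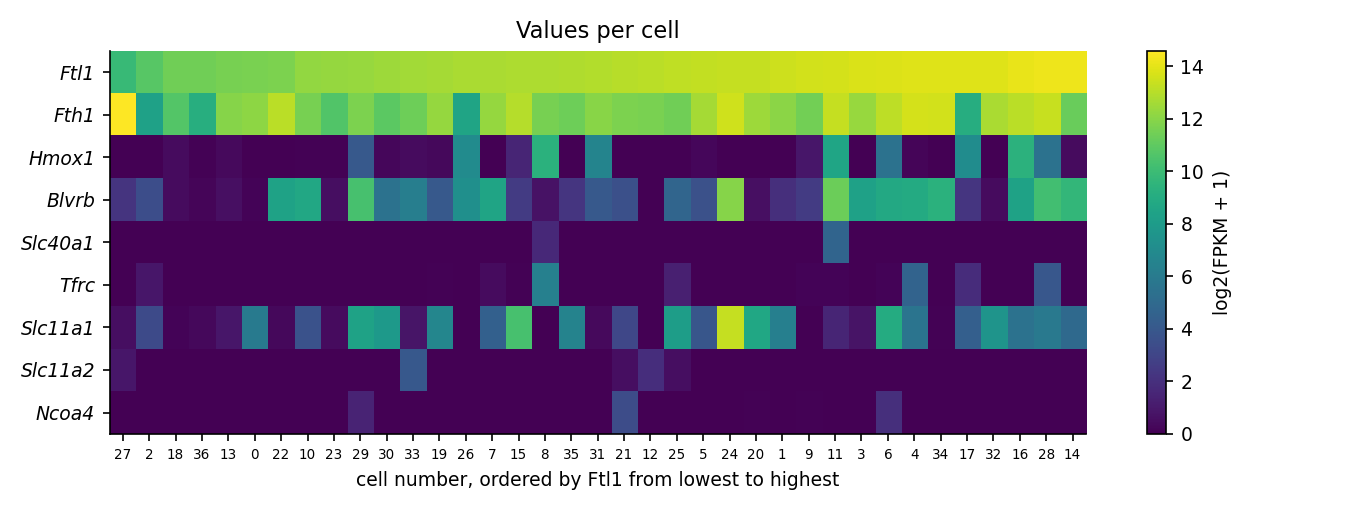
Log2(FPKM + 1) of the 9 genes (rows) in the 37 cells (columns, ordered by Ftl1 from lowest to highest), with dark colours for low and yellow for high values. The ferritin rows are green to yellow in every cell, Blvrb and Slc11a1 vary from cell to cell, and Tfrc, Slc11a2, Slc40a1 and Ncoa4 are dark in most cells.

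How far these genes varied together over the cells was described with Spearman's rho. The 37 points share their tissue, diet and processing and differ in depth, so no p-value is given, and weak values in sparse genes are not findings. Among the 15 pairs of the 6 genes detected in at least 5 cells the median rho was 0.25 (range −0.12 to 0.39), 13 pairs were above 0 and 4 were at 0.3 or more. Over all 11014471 pairs of genes detected in at least 5 cells the median was 0.03, with the middle 95% from −0.31 to 0.37. The pairs of these genes therefore lay above the typical pair but mostly inside its range. The highest were Ftl1 with Blvrb (rho 0.39), Fth1 with Blvrb (0.39) and Ftl1 with Fth1 (0.38; Pearson r 0.24, and 0.39 after the 2 cells with the most extreme Ftl1 are left out). Ftl1 with Fth1 was 0.49 without cells 7 and 27, and 0.35 and 0.37 in the 2 library parts. Over all 37 cells, Fth1 ranked 55th of 2387 genes for its rho with Ftl1. No rank was computed without cells 7 and 27. There the 5 genes closest to Ftl1 over all cells, named below, ran from 0.46 (Cd36) to 0.62 (Atp1b3), beside 0.49 for Fth1. Hmox1 with Blvrb was 0.24, Hmox1 with Ftl1 0.19 and Hmox1 with Fth1 −0.11. The sign of the last 2 turned between the library parts, from 0.40 to −0.16 with Ftl1 and from 0.13 to −0.44 with Fth1.

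The genes with the closest pattern to each member, by rho over 37 cells among 2387 others detected in at least 10 cells, were as follows. For Ftl1 they were Rap2b (0.56), Atp1b3 (0.53), Igf2r (0.52), Anpep (0.51) and Cd36 (0.51), and 6 genes (0.251%) were at 0.5 or more. For Fth1 they were Hist1h2bc (0.61), Qpct (0.57), Sypl (0.55), Galc (0.55) and Itgb5 (0.54), also with 6 genes (0.251%) at 0.5 or more. None of the 9 genes was among those at 0.5 or more for either chain, and the 2 lists of 5 genes had no gene in common. For Hmox1 the closest were Nt5dc2 (0.55), Anpep (0.55), Sdha (0.55), Cbr2 (0.52) and Tcp1 (0.51), with 0.209% of genes at 0.5 or more. For Blvrb they were Pmp22 (0.62), Atp6v1e1 (0.55), Spop (0.54), Prkaca (0.51) and Ctsb (0.50), with 0.168%, and for Slc11a1 Luc7l2 (0.63), Ube2a (0.53), Nckap1l (0.53), Trappc2l (0.53) and Sfxn3 (0.53), with 0.335%. Anpep, an aminopeptidase, was close to both Ftl1 and Hmox1, but its rho with Hmox1 was 0.63 in the first library part and 0.14 in the second.

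The genes were next set against scores of macrophage states, each the mean standardised log2(FPKM + 1) of a gene list. The lists were a lipid-associated CD9 state, a resident CD206 state, MHC class II, inflammatory cytokines, immediate early genes, lysosome, NRF2 oxidative stress, macrophage identity and housekeeping. Of 54 pairs of a gene and a list, 11 were at rho 0.3 or more and 6 at −0.3 or less. The share of all genes past these cutoffs is not given, nor the share with every gene of a list on 1 side of 0. These counts therefore describe the pairs only. At 0.30 with the housekeeping score, Slc11a1 ranked 421st of 2388 genes detected in at least 10 cells. At −0.31 with that score, Hmox1 ranked 53rd from the bottom. Ftl1 varied most closely with the CD9 lipid-associated score (rho 0.56, 0.58 and 0.62 in the 2 library parts), and 13 of 13 genes of that list had a rho with Ftl1 above 0. Among 2388 genes Ftl1 ranked 11th for this score, where the median gene had a rho of 0.10. The leading genes of the list were Cd36 (0.51), a fatty acid receptor, Lpl (0.49), lipoprotein lipase, and Lgals3 (0.47) and Ctsd (0.43). Cells with more Ftl1 thus tended to have a higher lipid-associated score. With the technical measures of a cell, the rho of Ftl1 was 0.21 for the FPKM sum, 0.12 for the number of detected genes and 0.03 for the value of 1 fragment. The part of depth and scaling in the CD9 value was not tested. Without the shallow cells, the rho with the CD9 score was 0.67, and without cells 7 and 27 it was 0.56.

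Hmox1 had its highest rho with another score. It was detected in only 10 cells, listed at 0 in 15 and between 0 and 1 FPKM in 12, so much of its rank order lies near the floor. With the technical measures of a cell, the rho of Hmox1 was 0.06 for the FPKM sum, −0.01 for the number of detected genes and 0.29 for the value of 1 fragment. The part of depth in the Hmox1 values was not tested. The rho of Hmox1 with the CD206 resident score was 0.49 (0.51 and 0.54 in the 2 library parts), 8th of 2388 genes. Over all cells 10 of 10 genes of that list had a rho above 0, led by Cbr2 (0.52), Folr2 (0.49), F13a1 (0.39) and Mgl2 (0.38). Mrc1, the CD206 gene itself, was at 0.22, Pf4 at 0.13 and Sepp1 at 0.062. Without cells 7 and 27, Mrc1 was at 0.16 and Sepp1 at −0.014. The rho of Hmox1 with the CD9 score was 0.00, and Ftl1 had a rho of −0.18 with the CD206 score. Of the 10 genes of the CD206 list, 3 had a rho above 0 with Ftl1, the highest being Folr2 at 0.32. Rescaled to the same FPKM sum in every cell, Ftl1 with the CD206 score was −0.004, and Hmox1 with that score was 0.50. The 2 iron genes thus had their highest rho with different state scores, a difference that has no test here since there is 1 sample. Blvrb varied with the CD9 score (0.50) and the lysosome score (0.47), with cathepsin B (Ctsb, 0.50) and cathepsin Z (Ctsz, 0.45) the closest lysosomal genes. Ctsd and Lipa are in both lists, so the 2 scores are not separate results. The rho of Blvrb with the 2 scores was higher in the first library part, at 0.77 and 0.69, than in the second, at 0.19 and 0.26. The part of the library in these values was not tested.

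Ftl1 had a rho of 0.39 with the lysosome score, where cathepsins B (Ctsb, 0.48), D (Ctsd, 0.43, also in the CD9 list) and S (Ctss, 0.40) were close to it. In the 2 library parts that score gave 0.57 and 0.22. Ftl1 also had a rho of 0.46 with the NRF2 oxidative stress score (0.47 and 0.29 in the parts), in which Gpx1 (0.50) and Cat (0.47), a peroxidase and a catalase, led. Txn1 (0.34) and Prdx1 (0.29) came next. Of the 10 scored genes of that list, 9 had a rho above 0 with Ftl1, but the median was only 0.13. Gclm (0.15), Txnrd1 (0.11) and Gsr (0.02) were low, and Tkt was at −0.06. The rho of Ftl1 was −0.42 with inflammatory cytokines and −0.40 with immediate early genes, the stress-induced transcription factors and their like. These values put Ftl1 40th and 35th from the bottom of the genes compared. All 12 immediate early genes had a rho below 0 with Ftl1, from Klf6 at −0.054 to Ier2 at −0.60, and Fosb was at −0.48. Of the inflammatory list, 8 of 10 genes had a rho below 0 with Ftl1, with Nfkbia, the NF-kappaB inhibitor, at −0.45, Nfkbiz at −0.39 and the chemokine Ccl4 at −0.37. For the inflammatory list score the rho with Ftl1 was −0.43 in each of the 2 library parts. Fth1 had 0.36 with the CD9 score, 0.33 with the NRF2 score and −0.34 with inflammatory cytokines, and Slc11a1 had 0.33 with the lysosome score (0.22 and 0.44 in the parts) and −0.32 with inflammatory cytokines. Blvrb was at −0.36 with the inflammatory list and Hmox1 at 0.061. That list also holds NF-kappaB feedback genes, and Nfkbia was at −0.45 with Fth1, −0.40 with Slc11a1 and −0.33 with Blvrb. The cytokine genes themselves were mixed. Il1b (0.033), Tnf (0.032) and Ccl3 (−0.056) had almost no relation with Ftl1, while Cxcl1 was at −0.29, Cxcl2 at −0.16 and Ccl2 at −0.14. Fth1 was at 0.024 with Ccl2, 0.12 with Ccl3 and 0.055 with Ccl4. It was at −0.37 with Cxcl2, −0.28 with Tnf, −0.22 with Il1b and −0.20 with Cxcl1. Slc11a1 had a rho below 0 with 10 of 10 genes of the list, and Blvrb with 9 of 10. The remaining values past 0.3 in size were Tfrc with the NRF2 score (0.34, with 0.14 and 0.58 in the parts), Slc11a1 with housekeeping genes (0.30) and Hmox1 with housekeeping genes (−0.31). Blvrb and Slc11a1 each had a rho of 0.33 with the number of genes detected in a cell. Given that number, the partial rho of Blvrb was 0.41 with the CD9 score and 0.37 with the lysosome score. By library part, the rho with inflammatory cytokines was −0.49 and −0.17 for Fth1, −0.49 and −0.22 for Blvrb, and −0.11 and −0.58 for Slc11a1. The Fth1 and NRF2 value rests on the first library part (0.61 against −0.064 in the second).

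**Figure D4:**
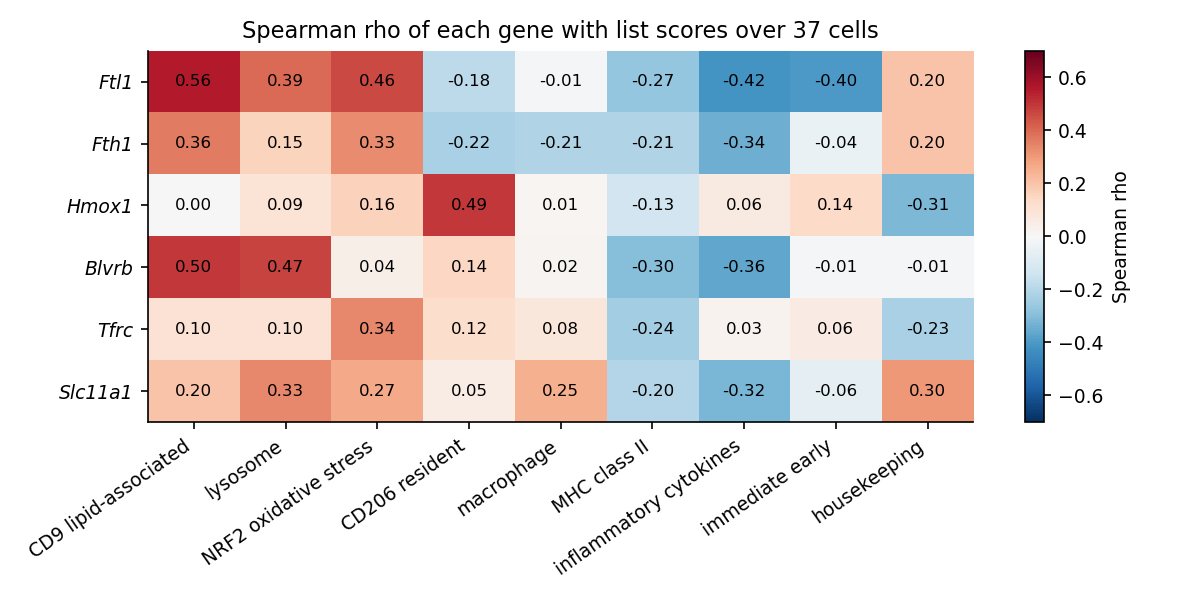
Spearman's rho over 37 cells between the 6 genes detected in at least 5 cells and the scores of 9 gene lists, as colour with the value printed. Ftl1 with the CD9 list (0.56), Blvrb with the CD9 list (0.50) and Hmox1 with the CD206 list (0.49) are the highest values.

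To place the genes, the iron and heme genes of a list of 66 were counted by role, of which 63 were in the table (Ftl2, Flvcr1 and Flvcr2 were not matched). Of the 63, which include the 9 genes, 29 (46.0%) were detected in at least 5 cells, against 19.6% of the table, and 9 (14.3%) in at least 19, against 4.03%. Without the 9 genes, 23 of 54 (42.6%) were detected in at least 5 cells and 5 (9.26%) in at least 19. Listed at 0 in every cell were 15 of the 63 (23.8%), or 27.8% of the 54, against 51.6% of the table. The same shares of the table stand behind the counts by role. Storage had 5 of 7 genes in at least 5 cells, Ftl1 and Fth1 among them. Pcbp2, an iron chaperone that loads ferritin, was in 32 cells (median 7.40 FPKM) and Pcbp1 in 17. Heme handling had 7 of 10, including Lrp1, the receptor for hemopexin, in 21 cells (median 2.82 FPKM), Hmox2, the constitutive heme oxygenase, in 18, and Blvra in 17. Storage (71.4%) and heme handling (70.0%) thus lay close to regulation (66.7%) in the share of genes detected in at least 5 cells. In at least 19 cells the shares were 42.9%, 20.0% and 22.2%. The order therefore depends on the threshold, and the lists are short. Uptake had 5 of 13, led by Trf, transferrin itself, in 34 cells, with a median of 127 FPKM and a highest value of 44189 in shallow cell 24, the second being 1173. Hfe, which modulates transferrin uptake, was detected in 15 cells. Export and systemic control had 0 of 8, with Cp, the ferroxidase that accompanies ferroportin, in 3 cells and Hamp, Heph, Hamp2, Hfe2, Bmp6 and Tmprss6 at 0 everywhere.

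Regulation had 6 of 9, with Maf in 31 cells (median 48.1 FPKM), Nfe2l2 (NRF2) in 30 (40.3), Bach1, the heme-binding repressor of Hmox1, in 16, Aco1 (iron regulatory protein 1) in 12 and Fbxl5, which targets iron regulatory protein 2, in 10. Mitochondrial use had 6 of 13 and none in at least 19 cells. Among the genes with their highest value in cell 27 were Lrp1 at 176 FPKM, Aco1 at 254 and Iscu, the iron-sulphur scaffold, at 1093. Cell 27 holds fibroblast genes, and the part of that in these values was not tested.

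**Figure D5:**
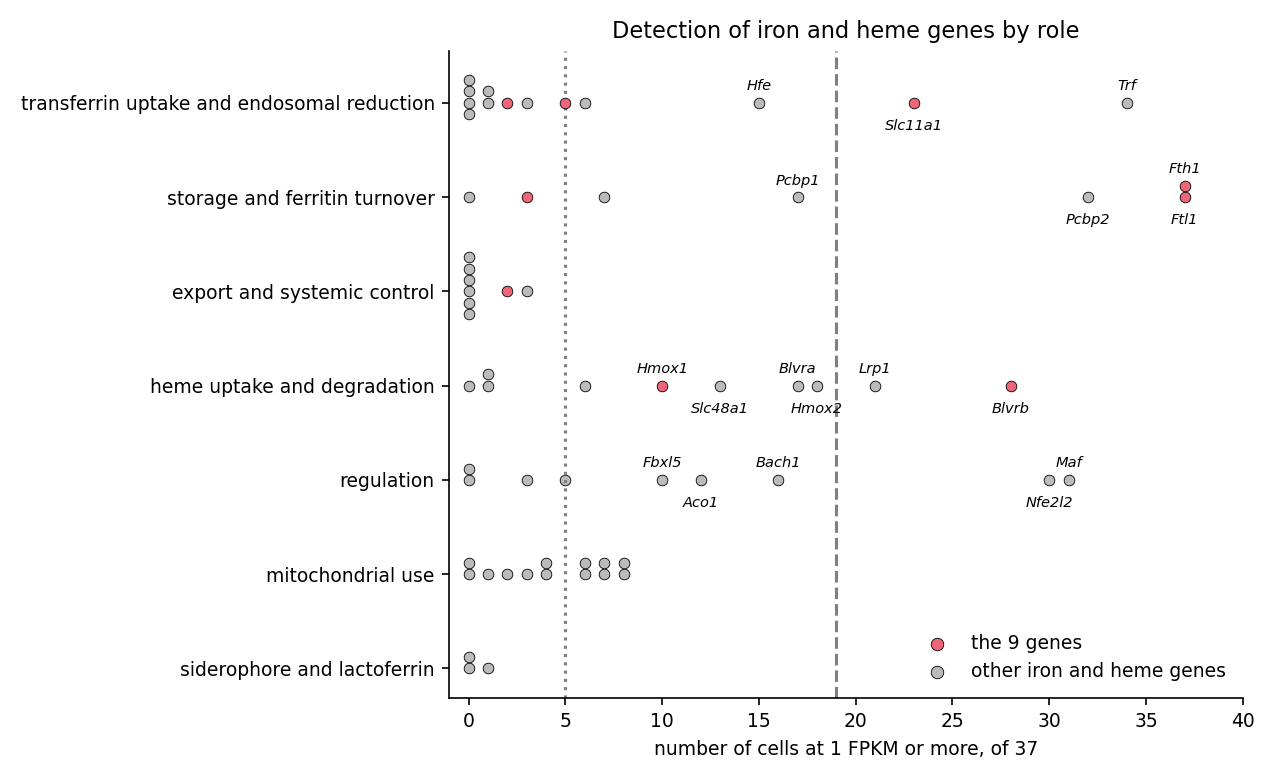
Number of the 37 cells in which each iron or heme gene reached 1 FPKM (x axis), by role (y axis), with the 9 genes in red and the others in grey. The dotted and dashed lines mark 5 and 19 cells. Ferritin, Trf, Pcbp2, Maf, Nfe2l2, Blvrb, Slc11a1 and Lrp1 are the genes beyond 19 cells.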

How the data were processed

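Each of the 37 samples was 1 sorted cell. The authors' deposited values are FPKM, in 1 table of 23947 genes; reads were aligned with STAR to mm9 and FPKM made with Cuffnorm, per the submitters' processing notes. The tool versions, the annotation and the settings: not given in the sources used here. From these FPKM, medians, shares of cells at 1 FPKM or more with exact Clopper-Pearson 95% intervals, and Spearman's rho on log2(FPKM + 1) were computed with Python 3.11.15, NumPy 2.4.6, pandas 2.3.3 and SciPy 1.17.1. Correlations used genes detected in at least 5 cells, or 10 for the comparison with all genes. List scores left the gene itself out. Relative depth was estimated from ratios of values between 0.005 and 1 FPKM over pairs of cells, 612 of 666 of which were kept, and was tested on simulated data. The depth as fragments is unknown. Iron-responsive elements were searched in GENCODE transcripts of a build other than mm9, and coordinates are left out. Named genes were all 9 genes, the listed iron and heme genes found in at least 19 cells or leading their role, and the 5 closest genes of each. The members, the gene lists and the rules were chosen with earlier results of these data known. Doublets were not called, which takes counts. Alternatives were rescaling to a sum of 1000000, other detection thresholds and pseudocounts, leaving out cells 7 and 27 or the shallow cells, and each library part alone.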

Additional observations from a re-analysis of the deposited data

How the results depend on the processing

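The number of these genes detected in at least 19 cells was 4, and 5 at 0.1 FPKM. The listed iron and heme genes in at least 5 cells numbered 29, and between 20 and 37 under other detection thresholds. The median log2 ratio of Ftl1 to Fth1 stayed between 0.69 and 1.15. The median rho of 0.25 between these genes ran from 0.19 to 0.26, except that it was 0.032 with no filter on detection, where genes in 2 or 3 cells enter the pairs. In cells 20 to 36 alone, the rho of Hmox1 with Tfrc was −0.066 and of Fth1 with the NRF2 list −0.064, against positive values over all cells; the cause was not tested. Rescaling raised the median of Ftl1 to 23714 and of Fth1 to 13020, since summed FPKM lay below 1000000 in most cells. It also moved the rho of Ftl1 with the macrophage list from −0.01 to 0.33 and with housekeeping genes from 0.20 to 0.44. With MHC class II that rho went from −0.27 to −0.04 and with the CD206 list from −0.18 to −0.004. With the CD9 list it was 0.56 before and 0.57 after rescaling. The unknown depth limits every value at 0. No paired analysis was possible because all cells belong to 1 group.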

Other observations

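Antioxidant genes that share the NRF2 program with ferritin were uneven. Of 14 listed genes, 10 (71.4%) were detected in at least 5 cells, against 19.6% of the table, and 5 (35.7%) in at least 19, against 4.03%. Gpx1, a glutathione peroxidase, was in all 37 cells at a median of 5049 FPKM, Prdx1, a peroxiredoxin, in 36 at 357, Cat, catalase, in 31 at 8.12, Sqstm1, an autophagy receptor, in 25 at 10.4 and Txn1, thioredoxin, in 21 at 1.54. Nqo1, a quinone reductase often used to mark NRF2 activity, was listed at 0 in every cell, and Slc7a11, the cystine importer, stayed below 1 FPKM in every cell. Nfe2l2 itself was in 30 cells and had a rho of −0.36 with Fth1.

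Some listed iron and heme genes not described above were at 0 or in few cells. Lcn2 and Ltf, lipocalin 2 and lactoferrin, and Hp, haptoglobin, were listed at 0 in every cell, and Cd163, the receptor for haptoglobin with hemoglobin, was detected in 6 cells with a highest value of 59.9 FPKM. Spic, a factor of iron-recycling macrophages of the spleen, was listed at 0 in every cell.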
